A study of Mus musculus with 13 samples.

Results

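The miR-17-92 and miR-106b-25 clusters are 2 related groups of microRNAs (miRNAs), each cut from a single primary transcript. Their 10 mature miRNAs were chosen by name, 6 from miR-17-92 and 4 from miR-106b-25, out of 1452 miRNAs listed in either of the deposited count tables. All 10 were found in both tables. They were followed in 13 small RNA libraries of extracellular vesicles from a Balb/C mouse model of cancer cachexia, the wasting that some tumours cause. Vesicles shed into serum-free medium over 48 h by C26 cells, a cultured colon adenocarcinoma line, gave 3 libraries and are called TMVs. Vesicles pelleted from the plasma of mice labelled cachectic, killed on day 14 after C26 cells were injected under the skin of the back, gave 6 libraries. Plasma vesicles of control mice, labelled healthy, gave 4 libraries. No genetic change or drug is given for any group, and TMVs come from 1 cell line. The labels do not say whether libraries came from different animals or cultures, so the p-values measure only the spread between these libraries. Small RNA of plasma vesicles is a mixture from many cell types, in which fewer vesicles of a source and less of a miRNA per vesicle cannot be told apart.

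A mature miRNA guides a silencing complex to messenger RNAs, mainly through its seed, the stretch from base 2 to base 8. Both clusters are known for promoting proliferation and survival, are activated by MYC and E2F factors, and are often high in tumours. The miR-17-92 hairpins lie at chr14:115043671-115044506 on the plus strand of GRCm38, a span of 836 bp in an exon of the long non-coding host gene Mir17hg. The 3 miR-106b-25 hairpins lie at chr5:138165321-138165818 on the minus strand, a span of 498 bp inside Mcm7, which encodes a subunit of the replicative helicase. In the 2 protein-coding Mcm7 transcripts that span them the hairpins are intronic, and Mir93 and Mir25 also fall in an exon of 1 retained-intron transcript. The host genes and positions come from GENCODE M21. miR-19b-3p and miR-92a-3p can each also be cut from a further hairpin, Mir19b-2 and Mir92-2, in the paralogous cluster on chromosome X, so their counts may not all belong to miR-17-92.

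The files name the members with the prefix mmu-, for mouse, which is left out elsewhere in the text. The 10 mature sequences are printed 5′ to 3′ as RefSeq gives them for GRCm38.p6, with the seed in capitals, because the seed assigns the members to families that cut across the clusters. The miR-17 family, whose best-known targets include the cell-cycle inhibitor p21, takes 2 members from each cluster:
mmu-miR-17-5p: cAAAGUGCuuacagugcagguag
mmu-miR-20a-5p: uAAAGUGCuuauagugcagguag
mmu-miR-93-5p: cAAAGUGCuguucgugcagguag
mmu-miR-106b-5p: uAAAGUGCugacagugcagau
The miR-18 family has 1 member here, with a seed close to that of the miR-17 family:
mmu-miR-18a-5p: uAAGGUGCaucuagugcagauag
The miR-19 family comes from miR-17-92 alone:
mmu-miR-19a-3p: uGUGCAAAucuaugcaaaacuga
mmu-miR-19b-3p: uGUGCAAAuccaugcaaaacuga
The miR-25/92 family takes 1 member from each cluster, and Bim and integrin messages are among its known targets:
mmu-miR-92a-3p: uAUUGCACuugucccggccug
mmu-miR-25-3p: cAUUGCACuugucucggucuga
The remaining member shares its seed with no other:
mmu-miR-106b-3p: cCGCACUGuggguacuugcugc

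Members of a family differ at few bases. Counting from 1 at the 5′ end, miR-20a-5p differs from miR-17-5p by C1U and C12U, and miR-93-5p differs from it by U10G, A11U, C12U and A13C. The pair in the miR-19 family differs by U11C alone. Over the 21 positions they share, miR-25-3p differs from miR-92a-3p by U1C, C14U and C18U. The sources used here do not give the way in which reads matching close relatives were shared out, so a level of 1 family member is uncertain against the others.

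Library totals ran from 112357 to 170571 counts in TMVs, from 9828 to 76376 in C26-bearing mice and from 7962 to 131385 in control plasma. The members together took 1402 to 2777 counts in TMVs, 218 to 1003 in the C26-bearing group and 136 to 5091 in control plasma. As a share of all counts this was 1.48% ± 0.206 in TMVs (SD, n = 3), 2.22% ± 1.28 in C26-bearing mice (n = 6) and 2.82% ± 1.17 in control plasma (n = 4). A count of 0, taken as at most 3 counts, allows up to 377 CPM (counts scaled to a library total of 1e6) in the shallowest library, control replicate 4, and 305 CPM in C26-bearing replicate 4. Plasma libraries fell into 2 kinds that cross the groups. miR-5119 alone held 26.6 to 58.7% of counts in the first 4 C26-bearing libraries and 46.1% in control replicate 4, and at most 2.55% in each of the other 8 libraries. The red cell list of 5 miRNAs (miR-486b-5p at 0 throughout) held 0.408 to 1.42% of counts in TMVs, 3.38 to 52.7% in C26-bearing mice and 5.88 to 31.3% in control plasma. The list for platelets, white cells and endothelium held 0.198 to 0.246% in TMVs, 0.627 to 2.24% in the C26-bearing group and 0.980 to 1.75% in control plasma. The liver list, miR-122-5p and miR-122-3p, held 0.0198 to 0.0375% in TMVs, 0.510 to 8.20% in C26-bearing mice and 5.87 to 25.5% in controls. The muscle list of 3 miRNAs held 0.168 to 1.09% in TMVs, 1.76 to 14.9% in C26-bearing mice and 0.725 to 4.01% in controls. Of the 8 miRNAs on the colon epithelium list, miR-200a-3p, miR-141-3p and miR-429-3p were at 0 in all TMV libraries, and the other 5 had counts there. The list held 0.0450 to 0.0739% in TMVs, 0.536 to 2.31% in C26-bearing mice and 1.07 to 3.80% in control plasma. The part of these sources in the member levels was not tested.

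The miR-25/92 family held most of the counts. mmu-miR-25-3p, a 3′-arm product of the Mcm7 intron, had 11524 counts over the 13 libraries, 56.9% of all member counts. mmu-miR-92a-3p followed with 6052 counts and mmu-miR-106b-3p with 1063. mmu-miR-93-5p had 597 counts, miR-20a-5p 481, miR-17-5p 278 and miR-106b-5p 118. The miR-19 pair and miR-18a-5p were near the limit of detection, with 83 counts for miR-19b-3p, 42 for miR-19a-3p and 17 for miR-18a-5p. The 3 most counted members hold 50.0 to 63.6% G and C bases, and the 4 least counted hold 34.8 to 43.5%. Between them, miR-93-5p holds 52.2%, miR-20a-5p 39.1% and miR-17-5p 47.8%, so the order by counts was not the order by base content. The part of base content in counts was not tested.

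**Figure D1:**
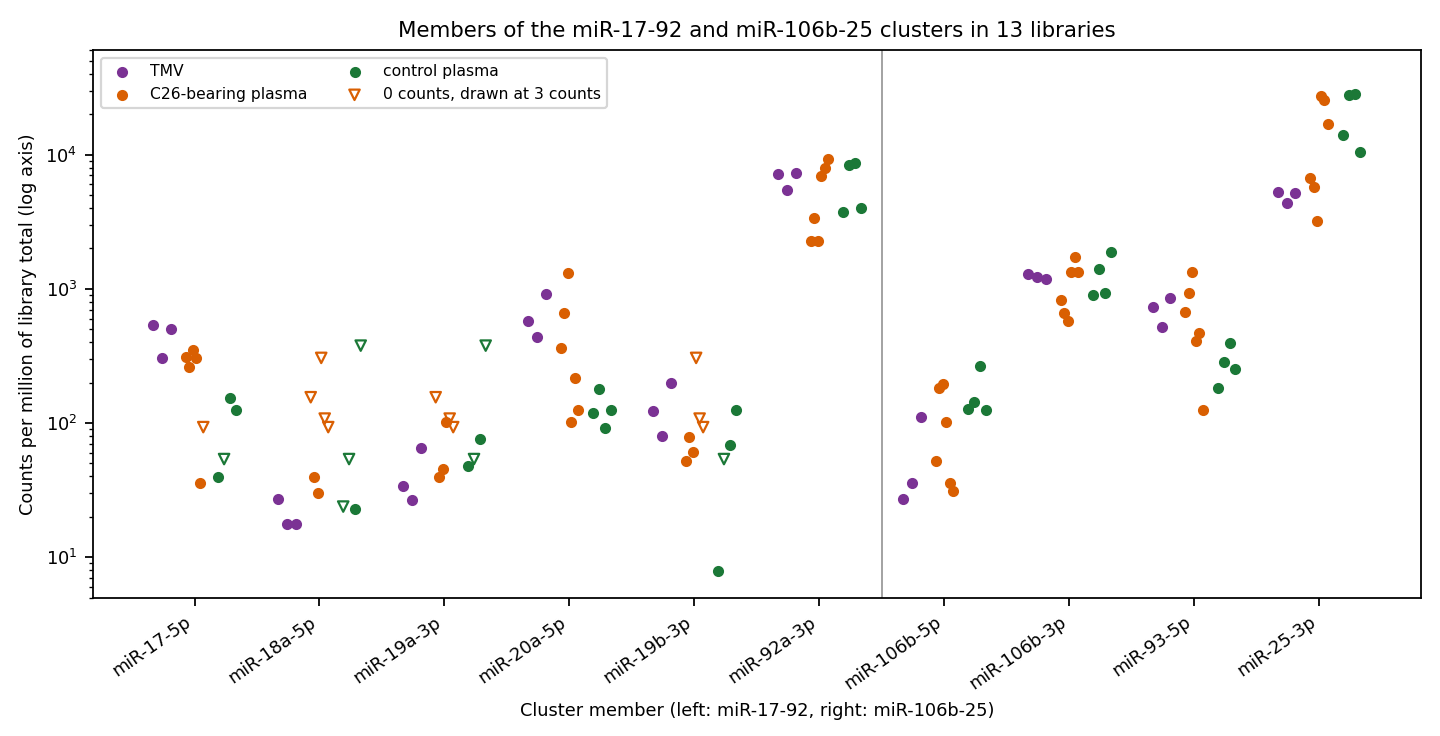
Level of each member in each of the 13 libraries, in CPM on a log axis, with TMVs, C26-bearing plasma and control plasma side by side. Each dot is 1 library, and open triangles mark libraries with 0 counts, drawn at 3 counts. miR-25-3p and miR-92a-3p lie above all other members, and miR-18a-5p and the miR-19 pair lie at or below the floor of the shallower libraries.

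The 2 miR-25/92 family members stood in opposite order in medium and in plasma. miR-92a-3p had 7159, 5483 and 7246 CPM in TMV replicates 1 to 3, and miR-25-3p had 5241, 4361 and 5194 CPM. In plasma miR-25-3p was the higher in each of the 10 libraries, at 14266 ± 10603 CPM in the C26-bearing group (SD, n = 6) and 20027 ± 9119 CPM in control plasma (n = 4). miR-92a-3p averaged 5343 ± 3078 CPM in C26-bearing mice and 6196 ± 2688 CPM in control plasma. By mean share, miR-25-3p ranked 41 of 1164 miRNAs in TMVs, 11 of 1354 in the C26-bearing group and 7 of 1354 in control plasma. miR-92a-3p ranked 34 in TMVs, 28 in C26-bearing mice and 27 in control plasma.

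Below them, miR-106b-3p averaged 1227 ± 59.1 CPM in TMVs, 1073 ± 455 CPM in the C26-bearing group and 1279 ± 463 CPM in control plasma. In TMVs the miR-17 family came next, with 701 ± 172 CPM for miR-93-5p, 641 ± 246 CPM for miR-20a-5p and 449 ± 128 CPM for miR-17-5p. Each of these means lay within 1 SD of the next, but miR-93-5p was above miR-17-5p in each TMV library, with 107, 58 and 146 counts against 79, 34 and 86. In C26-bearing plasma miR-93-5p (655 ± 427 CPM), miR-20a-5p (460 ± 460 CPM) and miR-17-5p (210 ± 152 CPM) came in the same order. In control plasma miR-93-5p stood at 279 ± 89.0 CPM, above miR-106b-5p (166 ± 67.7 CPM), miR-20a-5p (129 ± 36.8 CPM) and miR-17-5p (79.4 ± 71.5 CPM), and these last 3 did not differ beyond their spread. The fourth miR-17 family member, miR-106b-5p, stood lower in TMVs, at 58.1 ± 46.3 CPM.

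C26-bearing against control plasma was tested with edgeR's quasi-likelihood test on the whole plasma table, which kept 130 miRNAs above the filter on low counts, 5 of the 10 members among them. The filter asked for at least 227 CPM in 4 libraries. miR-25-3p, miR-92a-3p and miR-106b-3p met this level in every plasma library, and miR-93-5p met it in 5 C26-bearing and 3 control libraries. miR-17-5p met it in 4 C26-bearing and 0 control libraries, so it entered the test only through the group where it is high, and the positive sign of its fold change follows from that. None of these 5 passed the adjusted threshold of 0.05, and nor did any of the 130 (0.0% called). At an unadjusted p under 0.05 the test picked 15 of the 130 (11.5%), 9 of them higher (6.92%) and 6 lower (4.62%), and 0 of the 5 members. The C26-bearing and control libraries overlapped for all 5 members, and lay apart for 0.769% of the 130 in each direction.

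miR-93-5p, which represses p21 and the TGF-beta type II receptor in several cell types, came nearest to the threshold. Its TMM-scaled CPM, in which each library is scaled so that most miRNAs match, were 697, 890, 2091, 407, 410 and 140 in C26-bearing replicates 1 to 6, against 202, 247, 293 and 346 in control replicates 1 to 4. Libraries 1 to 5 of the C26-bearing group lay above every control, and replicate 6 lay below all 4. The means were 772 ± 696 in C26-bearing mice and 272 ± 61.7 in control plasma (SD), a log2 fold change of 1.56 (SE 0.727, edgeR adjusted p = 0.395). Among the 130 tested, 14 (10.8%) had at least 4 of the 6 C26-bearing libraries above every control, miR-93-5p among them.

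miR-17-5p, whose cluster mice need to survive birth, had 322, 251, 547, 305, 31.6 and 0 TMM-scaled CPM in C26-bearing replicates 1 to 6, against 43.9, 0, 113 and 173 in control replicates 1 to 4. Replicates 1 to 4 of the C26-bearing group lay above every control, and replicates 5 and 6 lay within the control range. The filter admitted miR-17-5p through those same 4 libraries, so their place above the controls does not support a difference. The miR-17-5p levels rest on 53 counts in C26-bearing mice and 26 in control plasma. The log2 fold change came to 1.85 (SE 1.20), with an edgeR adjusted p of 0.651.

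These 2 members were also compared across the split by miR-5119. With a term for libraries over 20% miR-5119, the log2 fold change of miR-93-5p was 0.59 (SE 0.731, edgeR adjusted p = 0.894) and that of miR-17-5p was -0.48 (SE 1.12, adjusted p = 0.956). Among the 5 libraries under 20% miR-5119 alone, miR-93-5p gave 0.13 (SE 0.814, edgeR adjusted p = 0.960), and among the 5 over it, with 1 control, 1.50 (SE 1.34, adjusted p = 0.873). miR-17-5p did not pass the filter within either part. The part of miR-5119 content in these differences was not tested beyond these fits.

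miR-20a-5p, the member closest to miR-17-5p in sequence, missed the filter and was tested only where the filter or the set of libraries was changed. Its TMM-scaled CPM were 375, 626, 2044, 102, 189 and 140 in C26-bearing replicates 1 to 6, against 132, 154, 67.7 and 173 in control replicates 1 to 4. Replicates 1, 2, 3 and 5 lay above every control, and replicate 3 stood far above the rest. With at least 10 CPM required in 4 libraries, 335 miRNAs were tested and the fold change of miR-20a-5p was 2.24 on the log2 scale (SE 0.984, edgeR adjusted p = 0.453). With no filter, 955 miRNAs were tested and it was 2.01 (SE 1.12, edgeR adjusted p = 0.333).

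The miR-25/92 family members did not separate the plasma groups. miR-25-3p, which represses the calcium uniporter in human cancer cells, had 6969, 5463, 5061, 27466, 22531 and 18966 TMM-scaled CPM in C26-bearing replicates 1 to 6, against 15554, 23735, 20779 and 14341 in control replicates 1 to 4. Replicates 1 to 3 lay below every control and replicate 4 above every one. This gave a log2 fold change of -0.37 (SE 0.537, edgeR adjusted p = 0.766). miR-92a-3p, known for restraining blood vessel growth, had 2359, 3220, 3588, 6917, 6942 and 10498 TMM-scaled CPM in C26-bearing replicates 1 to 6, against 4130, 7151, 6462 and 5529 in control replicates 1 to 4. Replicates 1 to 3 lay below every control, as for miR-25-3p, and replicate 6 above every one, with a log2 fold change of -0.06 (SE 0.456, edgeR adjusted p = 0.962).

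miR-106b-3p, which comes from the same hairpin as miR-106b-5p, had 858, 626, 903, 1322, 1515 and 1505 TMM-scaled CPM in C26-bearing replicates 1 to 6, against 993, 1202, 694 and 2592 in control replicates 1 to 4. The groups overlapped, with a log2 fold change of -0.25 (SE 0.541, edgeR adjusted p = 0.842). The other 4 members that missed the filter were tested without it, on few counts. Their log2 fold changes were -0.54 (SE 1.20) for miR-106b-5p, -0.24 (SE 1.54) for miR-19a-3p, -0.05 (SE 2.84) for miR-19b-3p and 1.08 (SE 1.61) for miR-18a-5p, with edgeR adjusted p-values from 0.691 to 0.990.

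**Figure D2:**
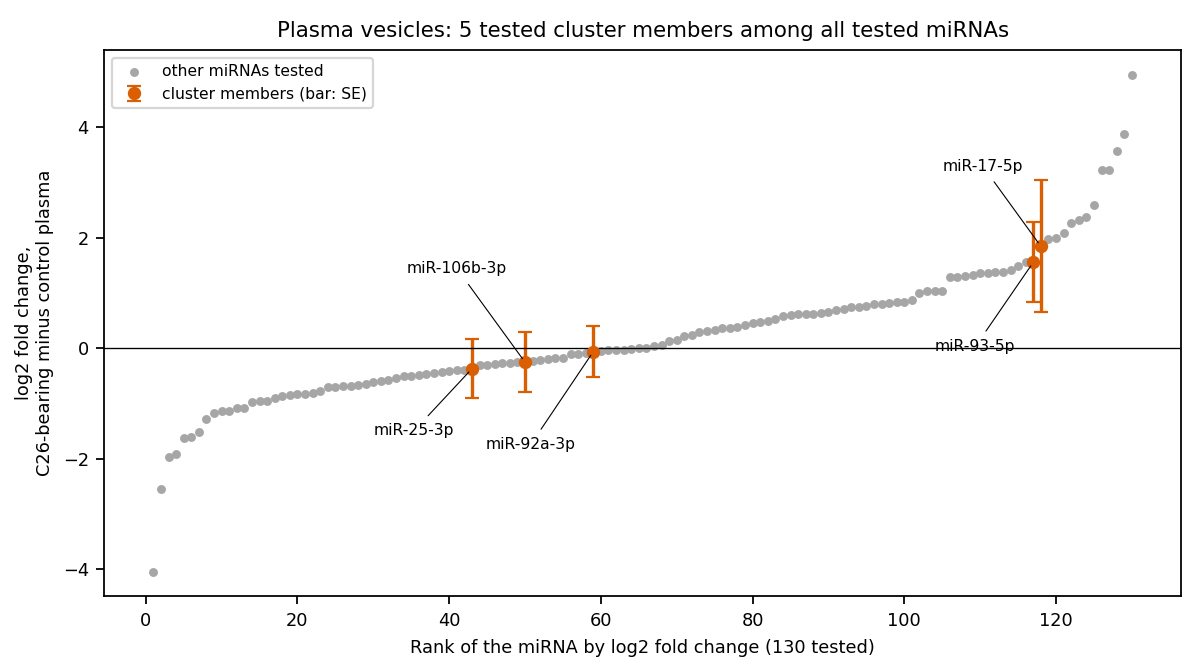
Log2 fold change, C26-bearing minus control plasma, of each of the 130 miRNAs tested, in order of size. Grey dots are other miRNAs, and orange dots with SE bars are the 5 tested members. miR-93-5p and miR-17-5p sit near 1.56 and 1.85, and miR-25-3p, miR-106b-3p and miR-92a-3p sit between -0.37 and -0.06.

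A ratio of 2 counts within a library needs no scaling by the library's total, of which miR-5119 fills an uneven share. The 8 ratios were compared with exact permutation tests of the log2 ratio after 0.5 was added to each count, and where a member has few or 0 counts this addition makes the value depend on depth. miR-93-5p over miR-106b-5p, which share a primary transcript and a seed, was the one ratio of the 8 (12.5%) in which C26-bearing and control plasma did not overlap. The counts of the pair gave ratios of 13, 5.07, 6.77, 4, 13 and 4 in C26-bearing replicates 1 to 6, against 1.44, 2, 1.49 and 2 in control replicates 1 to 4. The lowest C26-bearing library thus lay above the highest control. Depth limits single values, since miR-106b-5p had 1 count in each of C26-bearing replicates 1, 4, 5 and 6, as it had in control replicate 4. Wilson 95% intervals of the ratio, for counting error only, ran from 2.18 to 77.6 in C26-bearing replicate 1, from 3.81 to 12.0 in replicate 3 and from 0.601 to 26.6 in replicate 4. In the deepest control, replicate 3, the interval ran from 0.971 to 2.27. It ran from 0.767 to 2.69 in control replicate 1, from 0.876 to 4.56 in replicate 2 and from 0.262 to 15.3 in replicate 4. Intervals of single libraries thus overlapped between the groups.

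The log2 ratio of miR-93-5p to miR-106b-5p averaged 2.42 ± 0.724 in the C26-bearing group and 0.69 ± 0.201 in control plasma (SD), a difference of 1.73 (SE 0.312). It was higher than every control in 6 of 6 C26-bearing libraries. The exact two-sided permutation p was 0.00952, where 0.00476 is the smallest that 210 assignments allow, and the p adjusted over the 8 ratios was 0.0762, which did not pass. The difference was 1.70 within the libraries under 20% miR-5119 (exact permutation p = 0.10, the smallest that part allows) and 1.71 within those over it, where 1 control gives no test. These values rest on few counts, since miR-106b-5p had 1 count in C26-bearing replicates 5 and 6, under 20%, and in the 1 control over it.

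The other ratios gave no separation in plasma. miR-25-3p over miR-93-5p differed by -1.71 on the log2 scale (SE 0.960, exact permutation p = 0.190, adjusted p = 0.533), and by 0.02 within the libraries under 20% miR-5119. miR-92a-3p over miR-17-5p differed by -1.66 (SE 1.58, exact permutation p = 0.324, adjusted p = 0.648) and by 0.85 within those libraries. miR-25-3p over miR-92a-3p differed by -0.45 (SE 0.27, exact permutation p = 0.20, adjusted p = 0.533). The remaining 4 ratios differed by between -0.64 and 0.51, each with an exact permutation p of 0.471 or more.

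**Figure D3:**
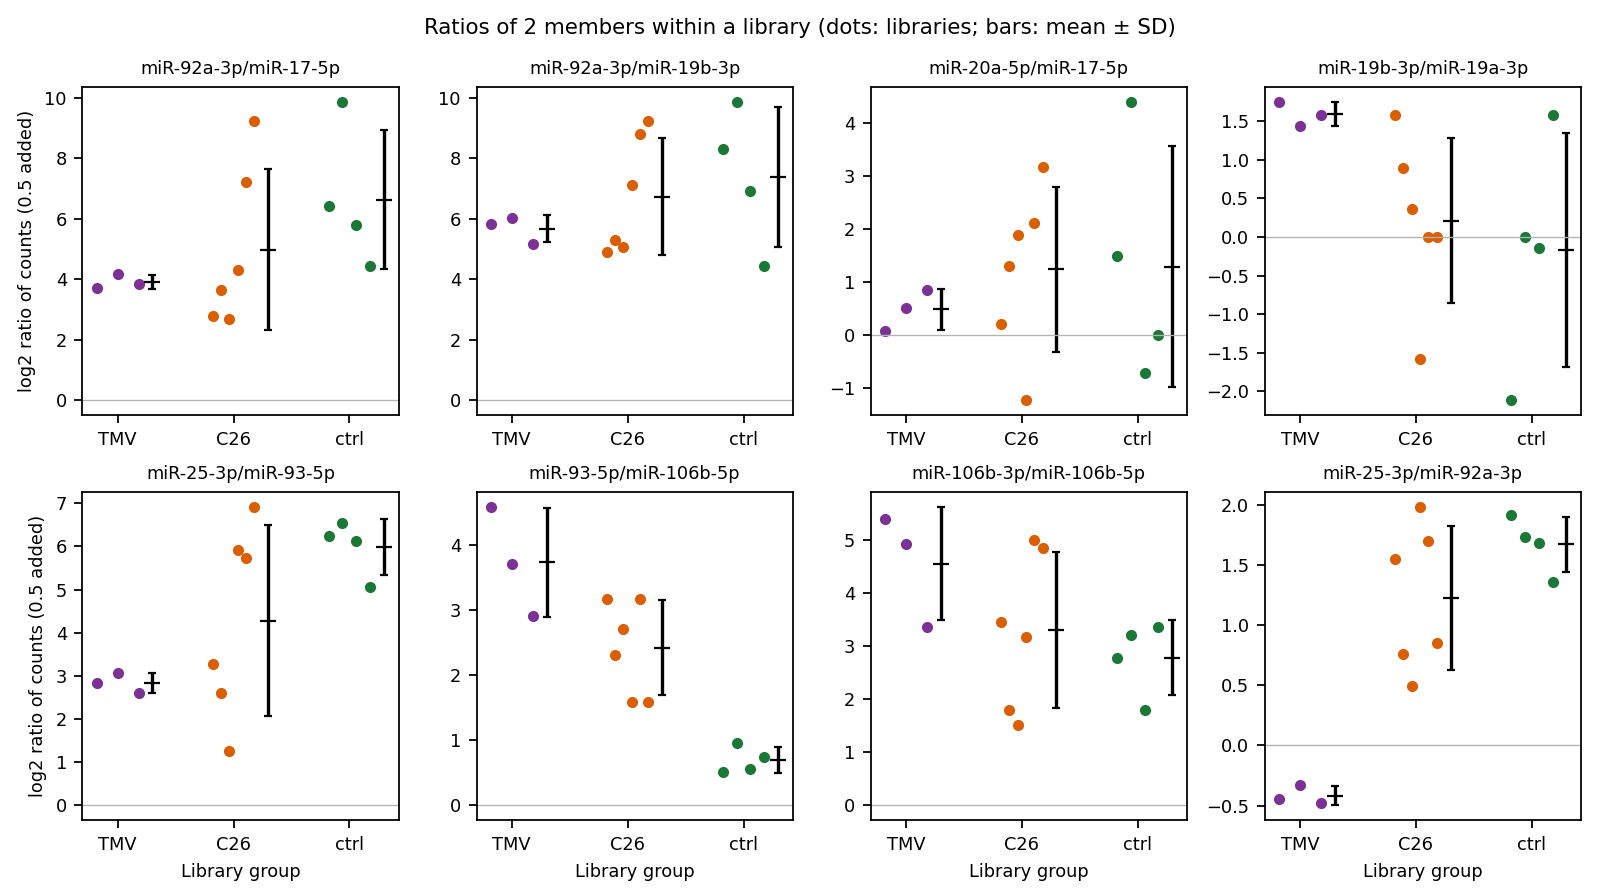
Log2 ratio of 2 members' counts, with 0.5 added to each, in TMVs, C26-bearing plasma and control plasma, for the 8 ratios compared. Dots are libraries and black bars are the mean ± SD. miR-93-5p over miR-106b-5p is above every control in all C26-bearing and TMV libraries, and miR-25-3p over miR-92a-3p is below 0 in the 3 TMV libraries only.

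TMVs against control plasma compares what cultured tumour cells shed with what circulates in mice without a tumour. Material and handling cannot be told apart, and this comparison shares its controls with the one above. miR-25-3p over miR-92a-3p had ratios of counts of 0.732, 0.795 and 0.717 in TMV replicates 1 to 3 and 2.95, 1.70, 1.41, 3.97, 3.25 and 1.81 in C26-bearing replicates 1 to 6, against 3.77, 3.32, 3.22 and 2.59 in control replicates 1 to 4. The TMV libraries lay close together and below every plasma library. The Wilson 95% intervals ran from 0.658 to 0.896 over the 3 TMV libraries, and the lowest bound in plasma was 1.15, in C26-bearing replicate 3. On the log2 scale the difference between TMVs and control plasma was -2.09 (SE 0.123).

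In the other cluster ratios, miR-25-3p over miR-93-5p was 3.16 lower in TMVs on the log2 scale (a difference of -3.16, SE 0.350), and miR-93-5p over miR-106b-5p was 3.04 higher (SE 0.492). That pair had ratios of counts of 26.8, 14.5 and 7.68 in TMV replicates 1 to 3, against the control ratios given above, with miR-106b-5p at 4, 4 and 19 counts in TMVs. These 3 ratios, and miR-92a-3p over miR-17-5p with a difference of -2.72 (SE 1.16), did not overlap between TMVs and control plasma, 4 of 8 (50.0%). The exact two-sided permutation p was 0.0286, the smallest that 35 assignments allow, for the first 3, with an adjusted p of 0.0762. For miR-92a-3p over miR-17-5p it was 0.0571 (adjusted p = 0.0914). That ratio rests on 5, 0, 20 and 1 counts of miR-17-5p in control replicates 1 to 4, and its difference was -2.35 with 1 added to each count and -3.44 with 0.1 added. No ratio could pass the adjusted threshold unless 5 of the 8 reached the smallest p. miR-106b-3p over miR-106b-5p differed by 1.77 (SE 0.709, exact permutation p = 0.0571, adjusted p = 0.0914), with TMV replicate 3 just below the highest control.

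Of the 6 hairpins whose arms could be compared, Mir106b, Mir25, Mir20a and Mir93 each favoured 1 arm in all 13 libraries, by varying margins. Only 1 arm of a hairpin is usually kept, and Mir106b is of interest because both of its arms are members. The Mir106b hairpin is printed 5′ to 3′ with both arms in capitals, miR-106b-5p first and miR-106b-3p second, from RefSeq, at chr5:138165737-138165818 on the minus strand of GRCm38.p6:
Mir106b: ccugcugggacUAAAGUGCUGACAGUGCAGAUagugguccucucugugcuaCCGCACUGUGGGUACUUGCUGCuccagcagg
The 3p arm had more counts than the 5p arm in 13 of 13 libraries. The 3p arm held 526 counts against 27 for the 5p arm in TMVs, 95.1% (Wilson 95% interval 93.0 to 96.6). It held 208 against 31 counts in C26-bearing plasma, 87.0% (82.2 to 90.7), and 329 against 60 in control plasma, 84.6% (80.7 to 87.8). These intervals pool the libraries of a group and cover counting error only. Mir25 also gave more of its 3p arm in 13 of 13 libraries, 11524 counts against 68 over all libraries. TMVs held 46 of those 68, and their 3p share was 97.9% (pooled Wilson 95% interval 97.2 to 98.4). The 3p share was 99.8% (99.6 to 99.9) in C26-bearing plasma, with 4 counts of the 5p arm. In control plasma it was 99.7% (99.6 to 99.8), with 18. Mir20a and Mir93 gave more of the 5p arm in all 13, with 481 counts against 1 and 597 against 10. Mir17 gave more of its 5p arm in 11 of 13 libraries, 278 counts against 24, and neither arm had a count in the other 2, C26-bearing replicate 6 and control replicate 2. Mir18 was divided, with 33 counts of the 3p arm and 17 of the 5p arm the 3p arm ahead in 7 of 13 libraries and the arms equal in 5.

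Within miR-17-92, miR-92a-3p made up 84.0% ± 2.76 of the cluster's counts in TMVs, 82.8% ± 16.5 in C26-bearing mice and 94.8% ± 2.67 in control plasma (SD). miR-20a-5p took 7.96% ± 1.96 of the cluster in TMVs, 10.7% ± 11.9 in the C26-bearing group and 2.25% ± 0.920 in control plasma, with 32% in C26-bearing replicate 3. Within miR-106b-25, miR-25-3p made up 71.3% ± 0.562 in TMVs, 82.6% ± 12.9 in C26-bearing mice and 90.7% ± 5.75 in control plasma. miR-106b-3p took 17.9% ± 1.95 of that cluster in TMVs, 7.92% ± 2.38 in the C26-bearing group and 7.16% ± 5.25 in control plasma. For miR-25-3p and miR-92a-3p these shares varied most between the C26-bearing libraries.

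**Figure D4:**
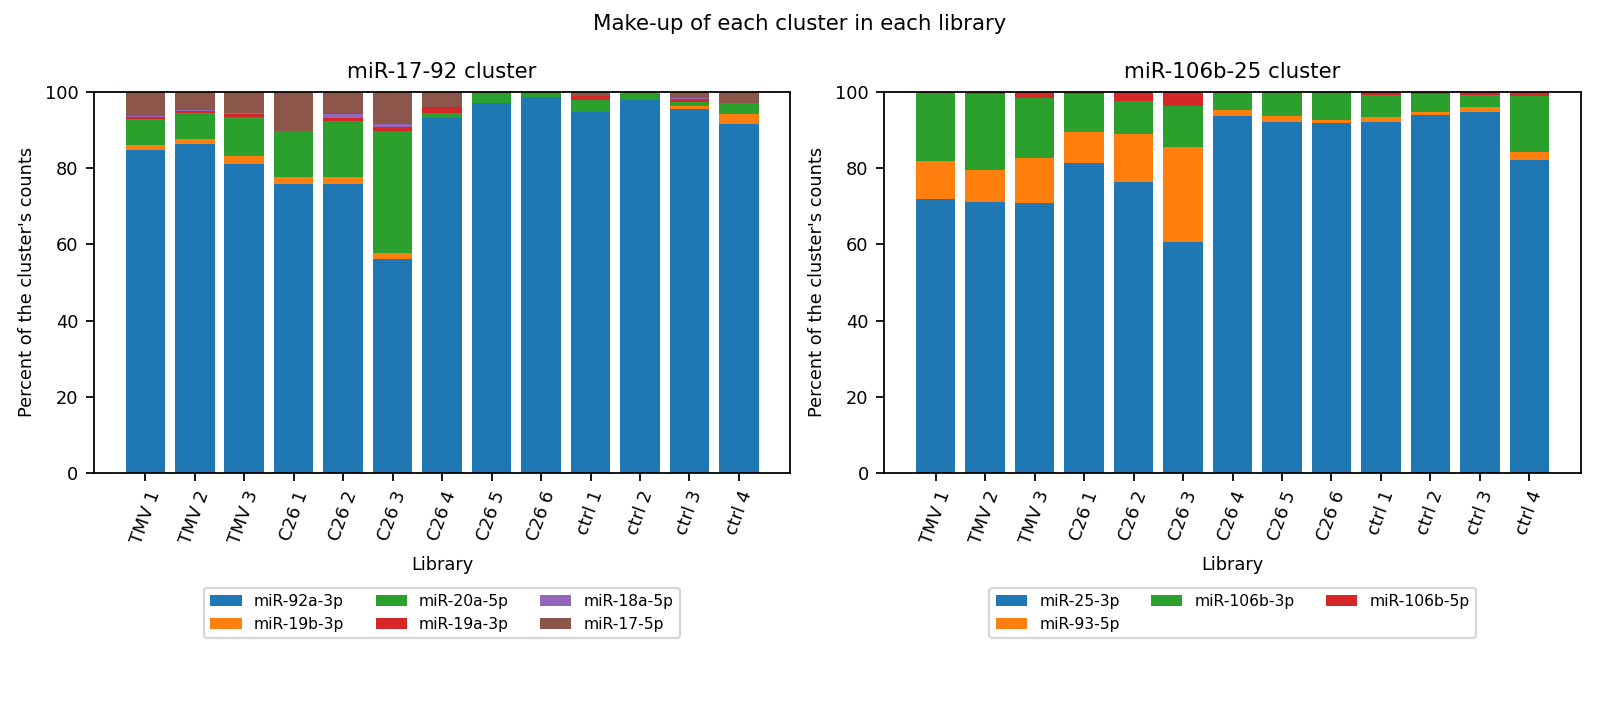
Percent of each cluster's counts taken by each member, 1 stacked bar per library, with TMV, C26-bearing (C26) and control (ctrl) libraries in that order. miR-92a-3p and miR-25-3p fill most of each bar, down to 56.1% and 60.5% in C26-bearing replicate 3, where miR-20a-5p and miR-93-5p are largest.

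The clusters had near-equal totals in TMVs and unequal ones in plasma. miR-17-92 held 0.792% ± 0.138 of all counts in TMVs, 0.609% ± 0.259 in C26-bearing mice and 0.649% ± 0.27 in control plasma. miR-106b-25 held 0.692% ± 0.0681 in TMVs, 1.61% ± 1.07 in the C26-bearing group and 2.18% ± 0.905 in control plasma. With miR-5119 left out of the totals, miR-17-92 held 0.792% ± 0.138 in TMVs, 0.860% ± 0.286 in C26-bearing mice and 0.746% ± 0.238 in control plasma, so C26-bearing plasma then had the highest mean of the 3 groups instead of the lowest. miR-106b-25 then held 0.692% in TMVs, 2.22% in C26-bearing mice and 2.46% in control plasma. The ratio of miR-17-92 to miR-106b-25 counts lay between 1.03 and 1.22 in TMVs, between 0.253 and 0.764 in C26-bearing plasma and between 0.259 and 0.347 in control plasma. Without miR-19b-3p and miR-92a-3p, the mean miR-17-92 share was 0.115% in TMVs, 0.0713% in C26-bearing mice and 0.0245% in control plasma. The C26-bearing libraries were uneven. miR-20a-5p, the largest part there, held 0.130% in C26-bearing replicate 3 and 0.0124% in replicate 6, against 0.00913 to 0.0179% in controls. The sums over members carry no test.

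By seed, the miR-25/92 family took 78.0% ± 1.39 of member counts in TMVs, 82.6% ± 14.1 in the C26-bearing group and 91.7% ± 4.85 in control plasma. The miR-17 family took 12.3% ± 2.19 in TMVs, 11.5% ± 12.7 in C26-bearing mice and 2.51% ± 0.859 in control plasma. The ratio of miR-25/92 family to miR-17 family counts was 6.63, 7.63 and 5.21 in TMV replicates 1 to 3. It was 6.44, 4.47, 1.73, 37.6, 44.5 and 93.6 in C26-bearing replicates 1 to 6, against 38.0, 58.9, 40.6 and 23 in control replicates 1 to 4. C26-bearing replicates 1 to 3 were thus within or below the TMV range, and replicates 4 to 6 lay within or above the control values. The red cell list held 3.38, 4.27, 4.68, 8.12, 25.3 and 52.7% of counts in the 6 C26-bearing libraries in that order, against 23.1, 19.5, 31.3 and 5.88% in the controls. The 3 libraries with the lowest red cell share in plasma were those with the lowest family ratio. The library with the highest share had the highest ratio. Only these extremes matched. Within C26-bearing replicates 1 to 3 the order was reversed, and in controls 31.3% went with a ratio of 40.6 and 19.5% with 58.9. miR-5119 was over 20% of counts in C26-bearing replicates 1 to 3 too. It was also over 20% in C26-bearing replicate 4 and control replicate 4, where the family ratio was 37.6 and 23. Members of the red cell list did not move together. miR-486a-5p ran from 17047 TMM-scaled CPM in C26-bearing replicate 1 to 579105 in replicate 6. miR-451a stood at 48997 in replicate 3, where the family ratio was lowest, and at 14452 in replicate 6, where it was highest. The match at the extremes of the list total thus does not hold for miR-451a. The part of red cell miRNA or miR-5119 content in the family ratio was not tested.

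**Figure D5:**
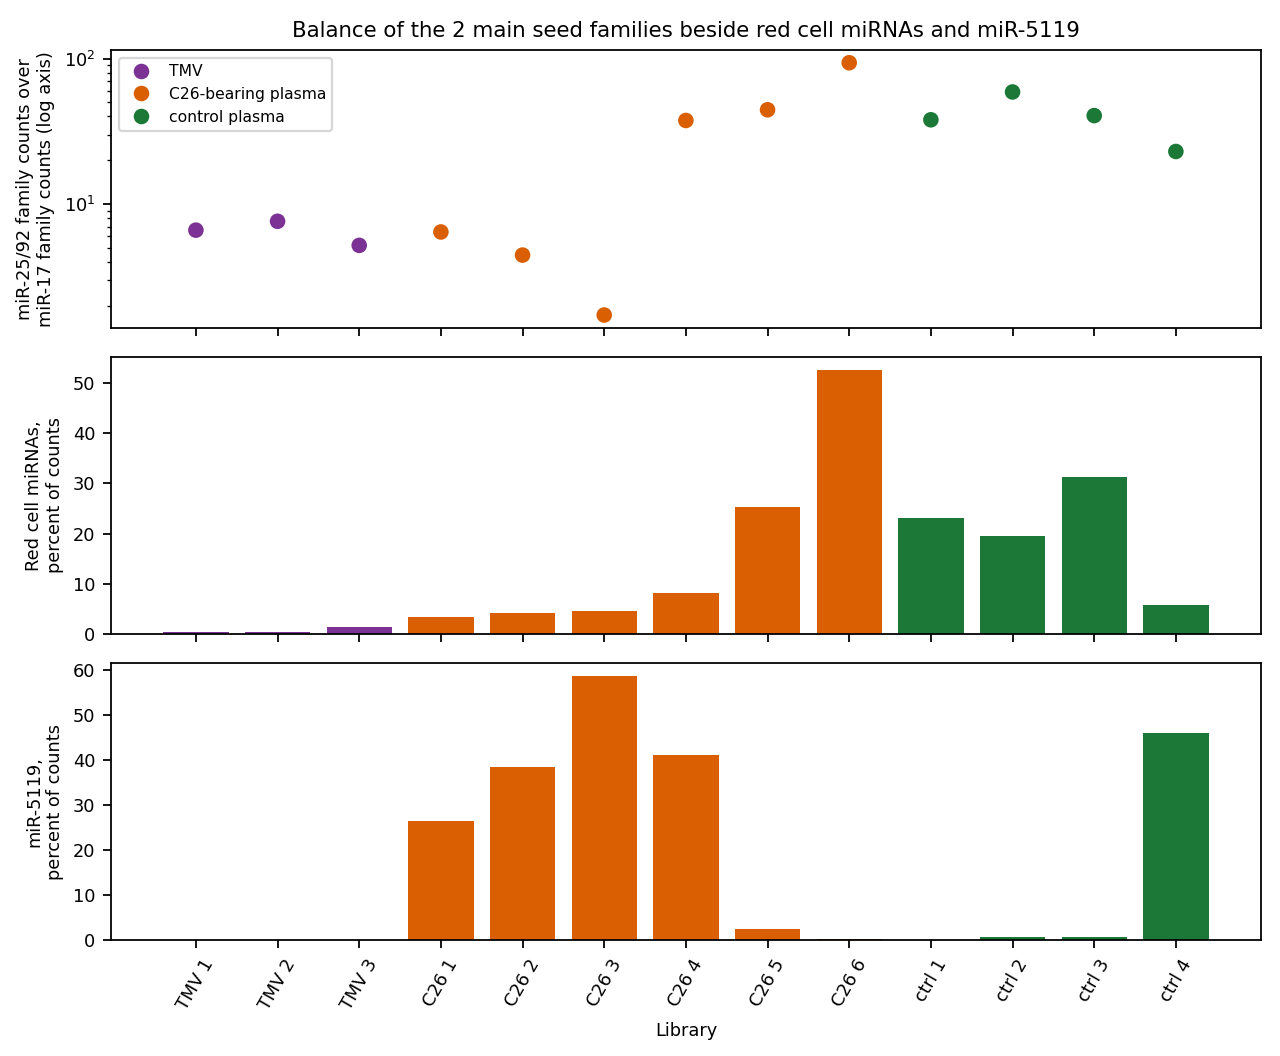
Top, counts of the miR-25/92 family over counts of the miR-17 family in each library, on a log axis. Middle and bottom, percent of all counts held by the red cell list and by miR-5119. C26-bearing replicates 1 to 3, at 1.73 to 6.44, sit within or below the range of the TMV libraries, and the other plasma libraries sit at 23 or above.

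Most other miRNAs of the families were rare. The most counted of them, miR-92b-3p, had 165 counts over the 13 libraries, more than the member miR-106b-5p with 118. Of 8 listed products of the opposite arms, 7 had any count and 2 reached 10 counts in a library. These were miR-25-5p, with 20, 17 and 9 counts in TMV replicates 1 to 3, and miR-17-3p, with 4, 2 and 13 counts there. Of the 10 miRNAs listed from the paralogous cluster on chromosome X, 6 had any count and 0 reached 10 counts in a library, for 27 counts in all. Its miR-17 relative miR-106a-5p, which differs from miR-17-5p by U10A, had 1 count in 13 libraries. miR-363-3p, another product of that cluster, had 0, 3, 3, 2, 3 and 0 counts in C26-bearing replicates 1 to 6, against 0 in each of the 4 controls, and is named here after its values were seen. Without a filter its edgeR adjusted p was 0.333. Among 3 seed relatives on other chromosomes, miR-92b-3p reached 29, 16 and 44 counts in TMV replicates 1 to 3 and 1, 8, 2, 2, 5 and 24 in C26-bearing replicates 1 to 6, against 18, 2, 13 and 1 in control replicates 1 to 4. None of these relatives passed the filter of the plasma test.

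Likeness of pairs among the 5 tested members was taken as the SD of their log2 ratio of TMM-scaled levels over the 10 plasma libraries. It was smallest, at 0.52, for miR-92a-3p with miR-25-3p, the most counted members, which come from different clusters. It was 0.62 for miR-92a-3p with miR-106b-3p. It was 2.54 for miR-17-5p with miR-92a-3p, from the same cluster, and 1.91 for miR-93-5p with miR-25-3p, also from the same cluster. The miR-17-5p and miR-93-5p pair, of 1 seed, gave 1.40. Among 125 non-members, the miRNAs most like the miR-17-92 sum were let-7d-5p (SD 0.42), miR-203-3p (0.47) and miR-320-3p (0.48), against a median of 1.30 over all 125. Those most like the miR-106b-25 sum were miR-203-3p (0.43), miR-320-3p (0.48) and miR-30d-5p (0.51), against a median of 1.41. Most counts in these sums come from miR-92a-3p and miR-25-3p, so likeness to a sum is mostly likeness to that member. All points share library and depth, and counting error widens the SD of rare miRNAs, so these are descriptions without a test.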

How the data were processed

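Small RNA libraries of C26-cell vesicles (TMVs) and of plasma vesicles were deposited as 2 tables of raw counts per mature miRNA, with 1164 and 1354 miRNAs. Per the labels' protocols, vesicles were pelleted by successive spins and RNA was isolated with TriPure. Use of bcl2fastq and of cutadapt 1.10 is recorded in the submitters' processing notes. For the aligner, counter, annotation and genome build, the sources used here give no name. The members and lists were chosen with earlier results of these data known. All 10 members are named, and relatives where they reach 10 counts in a library.

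From the deposited counts, edgeR 4.0.16 in R 4.3.3 tested C26-bearing against control plasma over the whole table (filterByExpr with a minimum count of 10, TMM, robust quasi-likelihood fit, Benjamini-Hochberg at 0.05), after the script was tested on simulated data. Log2 ratios of 2 members were compared with exact two-sided permutation tests, adjusted over 8 ratios. Sums over members have no test. Sequences and positions came from RefSeq (GRCm38.p6, all 10 members matched by name) and GENCODE M21. Alternatives covered scaling, filters, DESeq2 1.42.0, limma 3.58.1 voom, a replicate block, each library left out, libraries under 10000 counts, control replicates 2 and 3, whose descriptions carry 2 numbers of unstated meaning, and miR-5119. As the labels name no molecular identifiers, intervals and floors cover counting error only. Other steps ran in Python 3.11.15 (scipy 1.17.1, pandas 2.3.3, numpy 2.4.6).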

Additional observations from a re-analysis of the deposited data

Results flagged for a closer look

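Over 50 sets of values, 1 measure in 1 group of 4 to 6 libraries each, the highest or lowest library was compared with its nearest neighbour by Dixon's test, which flags about 1 set in 20 by chance. miR-20a-5p stood apart in C26-bearing replicate 3, with 2044 TMM-scaled CPM, where the next library had 626. miR-18a-5p stood apart in control replicate 3, with 16.9 TMM-scaled CPM, which rests on 3 counts where the other 3 controls had 0. The share of counts of the miR-18 family, which has that 1 member here, stood apart in the same library, at 0.00228%.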

How the results depend on the processing

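Members called between C26-bearing and control plasma stayed at 0 in every alternative. Over all miRNAs, 4 were called with no filter, 4 by DESeq2, 17 by limma voom, 2 with a term for miR-5119, 1 in the libraries over 20% miR-5119 alone and 0 to 1 with a library left out, 1 without C26-bearing replicate 2 or 3. The 15 miRNAs at an unadjusted p under 0.05 became 1 without control replicates 2 and 3, 25 without libraries under 10000 counts, 30 with the 10 CPM filter, 33 with the replicate block, 51 by limma voom, 95 with no filter and 8 to 30 with a library left out. Members among them, 0 in the report, were 1 with RLE factors, the 10 CPM filter, DESeq2, limma voom or no libraries under 10000 counts, 2 with the replicate block, and 0 to 2 with a library left out, 2 without C26-bearing replicate 6. The log2 fold change of miR-93-5p kept its sign in 25 alternatives, from 0.13 to 1.85, with adjusted p from 0.0646 (limma voom) upwards. As miR-17-5p met the main filter in C26-bearing libraries alone, its positive signs here do not support a difference. It passed the filter in 15 of the 25 alternatives. Its log2 fold change was -0.48 with the miR-5119 term and above 0 in the other 14. That of miR-92a-3p was 0.068 with RLE factors, 0.065 by DESeq2, -0.34 to 0.11 with a library left out, 0.19 without control replicates 2 and 3, 0.14 with the miR-5119 term and 0.56 under 20% miR-5119. That of miR-106b-3p was -0.53 to 0.41 with a library left out, 0.13 without libraries under 10000 counts and 0.67 under 20% miR-5119, where that of miR-25-3p was 0.040.

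In plasma, the log2 difference of miR-93-5p over miR-106b-5p kept its direction in 17 alternatives, from 1.56 to 1.92, with adjusted p from 0.0635 to 0.50. That of miR-20a-5p over miR-17-5p was 0.031 with 1 added, -0.72 to 0.98 with a library left out, 0.49 without control replicates 2 and 3, 0.010 without libraries under 10000 counts and 0.92 under 20% miR-5119. miR-19b-3p over miR-19a-3p gave -0.27 to 0.96 with a library left out and -1.27 over 20% miR-5119. miR-92a-3p over miR-19b-3p gave -1.62 to 0.18, 0.37 without control replicates 2 and 3 and 0.65 under 20% miR-5119, where miR-92a-3p over miR-17-5p gave 0.85 and miR-25-3p over miR-93-5p 0.016. For TMVs against control plasma, miR-20a-5p over miR-17-5p gave -1.47 to 0.23 with a library left out, and miR-25-3p over miR-92a-3p gave -1.82 against all 10 plasma libraries (exact permutation, adjusted p = 0.0280).

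In deviations from their group mean, same-numbered plasma libraries correlated at -0.37, -0.29, -0.30 and 0.16 in replicates 1 to 4. Control replicate 4 was the closest control to each of these C26-bearing libraries. The labels state no pairing, and these values cannot decide whether the numbers pair samples. With the replicate block no miRNA was called, the log2 fold change was 1.82 for miR-93-5p, 2.78 for miR-17-5p (edgeR adjusted p = 0.164) and -1.16 for miR-25-3p, and the difference of miR-106b-3p over miR-106b-5p was -0.30. The mean miR-17-92 share without miR-19b-3p and miR-92a-3p was 0.115% in TMVs, 0.0713% in the C26-bearing group and 0.0245% in control plasma. The C26-bearing libraries behind that mean were uneven. The causes of these changes were not tested. Depth limits the miR-17, miR-18 and miR-19 family values most, and 5 members were too rare for the filtered test.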
